A study of Ovis aries with 32 samples.

Results

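The genes described here are CYTB, COX1, COX2, COX3, ATP6 and ATP8, the mitochondrially encoded subunits of respiratory complexes III, IV and V. They were taken from a gene table of 32 RNA-seq libraries of Tan sheep, a fat-tailed breed, as the rows whose gene name equals 1 of these 6 symbols. Each symbol stood on 1 row of the 30722 rows, so all 6 members were found, and all 6 passed the filter on low values (1 TPM or more in at least 4 libraries) in every tissue. The table gives their identifiers as ENSOARG00020000034 for CYTB, ENSOARG00020000017 for COX1, ENSOARG00020000020 for COX2, ENSOARG00020000023 for COX3, ENSOARG00020000022 for ATP6 and ENSOARG00020028106 for ATP8, and all lie on the mitochondrial chromosome. In the trial, male sheep of 3 months received the basal pellet with succinic acid at 1% of dry matter (SA), or the basal pellet alone (CON), for 60 days that followed 10 days of adaptation. Of 24 sheep, 12 per diet, 4 per diet were sequenced, and the libraries came from tail fat, liver and tissues labelled pituitary and hypothalamus, 4 per diet and tissue in 8 groups. Succinic acid is an intermediate of the tricarboxylic acid cycle and the substrate of complex II of the respiratory chain. The design sets SA against CON within each tissue.

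Mitochondrial DNA is a small circle that is transcribed as long strands, and the strands are cut into transfer, ribosomal and messenger RNAs. The transfer RNAs that lie between the coding genes mark most of the cuts, while ATP8 and ATP6, which overlap, stay together on 1 messenger. CYTB encodes cytochrome b, the core of complex III, which passes electrons to cytochrome c. COX1 and COX2 hold the metal centres of cytochrome c oxidase (complex IV) and COX3 is the other mitochondrially encoded core subunit. ATP6 and ATP8 encode the subunits a and A6L of the membrane part of ATP synthase (complex V), which makes ATP from the proton gradient. All the other subunits of these 3 complexes are encoded in the nucleus and imported.

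The values are TPM, in which transcript abundance per length is scaled within each library, so a level is a share of a library's RNA and a difference between diets is a difference in shares. Liver and tail fat carried the markers of their labels, whereas markers of hypothalamus and pituitary were low in the tissues so labelled. In tissue labelled hypothalamus, 9 of 10 listed markers were found and summed to between 7.07 and 18.8 TPM in SA and between 9.33 and 12.0 TPM in CON, while the striatal gene PPP1R1B stood at 1072 to 1973 TPM. In tissue labelled pituitary, 6 of 9 listed markers were found and summed to between 2.92 and 5.90 TPM in SA and between 2.85 and 4.89 TPM in CON. The glycoprotein hormone subunit gene CGA was listed at 0 there, but also in every library of the other tissues, so its 0 is not particular to this tissue. In tissue labelled pituitary the 4 neuron markers summed to between 562 and 2566 TPM in SA and between 1718 and 2454 TPM in CON. The 4 oligodendrocyte markers summed there to between 9802 and 18202 TPM in SA and between 7761 and 20199 TPM in CON. In tissue labelled hypothalamus the neuron markers summed to between 1158 and 1365 TPM in SA and between 1037 and 1410 TPM in CON. Both tissues are called by their labels below, and the cells they hold were not determined. Pituitary SA 4 stood apart from the other pituitary libraries, with 68.8% of TPM from mitochondrial genes and 496 TPM of the glycolytic gene GAPDH. In liver, the 6 hepatocyte markers summed to between 5874 and 22829 TPM in SA and between 64148 and 85146 TPM in CON, and 10216 to 10611 genes reached 1 TPM in SA against 11504 to 12057 in CON. In tail fat, SA 1 and CON 2 stood apart from the other 6 libraries, as described below for ATP8.

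Together the 6 members made up between 14.4% and 49.9% of all TPM. COX1 was among the 4 genes of highest TPM in all 32 libraries and COX3 among the first 7. ATP8 was the gene of highest TPM in all 16 libraries labelled hypothalamus or pituitary, but held rank 6 to 8 in liver SA, against rank 1 or 2 in liver CON. CYTB had the lowest mean of the members in every group except tail fat SA, where COX2 was lowest, and its rank was 6 to 17. The 6 members held 64.2% to 74.1% of the TPM of the 13 mitochondrial protein genes, so their joint share of mitochondrial messenger varied far less than their share of the library.

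The members' levels differed between diets in liver. COX1, COX2, COX3, ATP6 and CYTB were 2.66 to 4.57 times as high in SA as in CON liver, and ATP8 was 0.578 times as high. All 6 passed the test at an adjusted p under 0.05 (limma), 5 of them higher and 1 lower in SA, set against 64.3% called among the 11582 genes of that liver fit, with 5.21% called higher and 59.1% called lower. For none of the 6 did the 4 SA and 4 CON values overlap, which held for 58.3% of genes tested, 4.07% with SA above CON and 54.2% with SA below CON. On the TPM scale 8.1% of the 7445 called genes were higher in SA liver. That split rests on the scale: scaled to nuclear TPM it was 43.6% of 3951 called genes and after quantile normalization 43.6% of 4326, with all-gene medians of -0.11 and -0.0861 in place of -0.83.

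**Figure D1:**
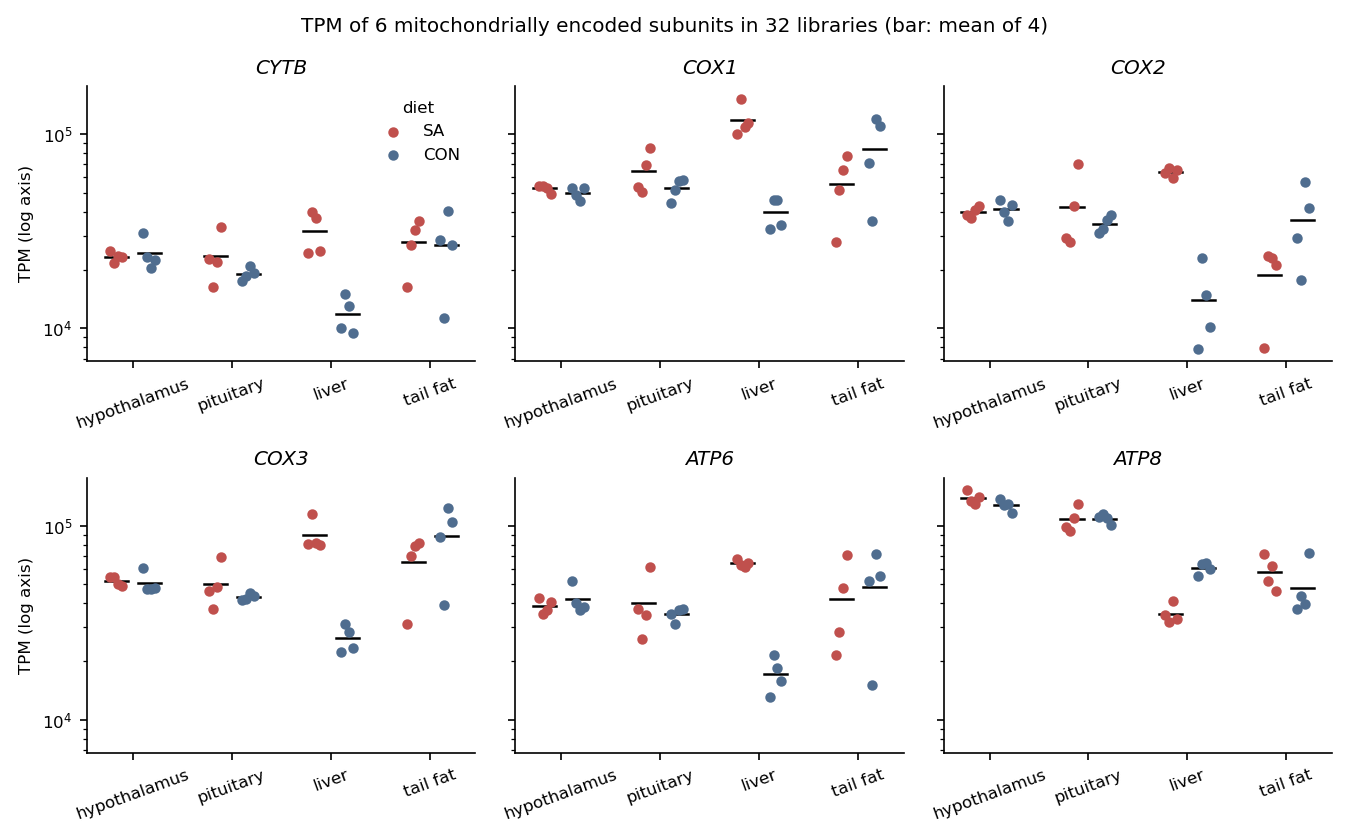
TPM (log axis) of the 6 members in each of the 32 libraries, by tissue, with SA left of CON and a bar at the mean of the 4 libraries. In liver the SA points of CYTB, COX1, COX2, COX3 and ATP6 lie above all CON points and those of ATP8 lie below them, while in the other tissues the points of the 2 diets overlap.

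Among the complex IV subunits, COX1 stood at 100149, 151510, 109105 and 114180 TPM in SA liver and at 32697, 45629, 45934 and 34021 TPM in CON liver. The lowest SA library was above the highest CON library, and the change in log2(TPM + 1) was 1.59 ± 0.33 (SE; limma adjusted p = 0.00222). COX2 had 63211, 67154, 59857.5 and 65617 TPM in SA liver, against 7869, 23137, 14814 and 10166 TPM in CON liver. COX2 was the member with the largest change, 2.31 ± 0.39 (SE; limma adjusted p = 7.37e-04), and its SA libraries lay close together while its CON libraries spread widely. COX3 had 80818, 114384, 81609 and 79596 TPM in SA liver, against 22360, 31085.5, 28331 and 23339 TPM in CON liver. SA 2 was above the other 3 SA libraries, and the change was 1.76 ± 0.32 (SE; limma adjusted p = 0.00109).

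For complex V, ATP6 had 67717, 62851, 61344 and 64052 TPM in SA liver, against 13200, 21701, 18513 and 15858 TPM in CON liver. The SA values were within a narrow range and well above CON, a change of 1.91 ± 0.31 (SE; limma adjusted p = 6.02e-04). ATP8, encoded by the gene that overlaps ATP6, went the other way, with 34608, 31860, 40740 and 32983 TPM in SA liver and 55116, 63229, 64591 and 59738 TPM in CON liver. ATP8 fell by 0.80 ± 0.30 on the log2 scale (SE; limma adjusted p = 0.0398). The median of all genes tested in liver was -0.83, so ATP8 stood 0.04 above that median and the other 5 members 2.23 to 3.15 above it. The call of ATP8 was lost in 7 of the 8 fits that left out 1 library, all but the one without SA 2 (adjusted p 0.0537 to 0.111 in those 7), with no filter on low values (adjusted p = 0.0659) and with the replicate number as a block (adjusted p = 0.0961). Scaled to nuclear TPM the change of ATP8 was 0.18 (limma adjusted p = 0.641), and after quantile normalization it was -1.55 (adjusted p = 8.63e-04).

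For complex III, CYTB stood at 24544, 39963, 37161 and 24950 TPM in SA liver and at 10099, 15053, 13027 and 9476 TPM in CON liver. The change was 1.40 ± 0.34 (SE; limma adjusted p = 0.00528), with SA 2 and SA 3 above the other SA libraries. The 5 members other than ATP8 kept their direction and their call in liver under each alternative run, those leaving out 1 library included, with changes of 0.78 (COX1 after quantile normalization) to 3.29 (COX2 scaled to nuclear TPM). Mitochondrial genes in all held 52.5% to 71.0% of TPM in SA liver, against 20.2% to 27.9% in CON liver, and the 12S ribosomal RNA had 94.2 to 1997 TPM in SA and 23.7 to 46.3 TPM in CON. In bulk tissue, a different number of cells of a type and a different amount of RNA per cell cannot be told apart. The part of the low hepatocyte markers and of the smaller number of genes in SA liver in these changes was not tested.

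**Figure D2:**
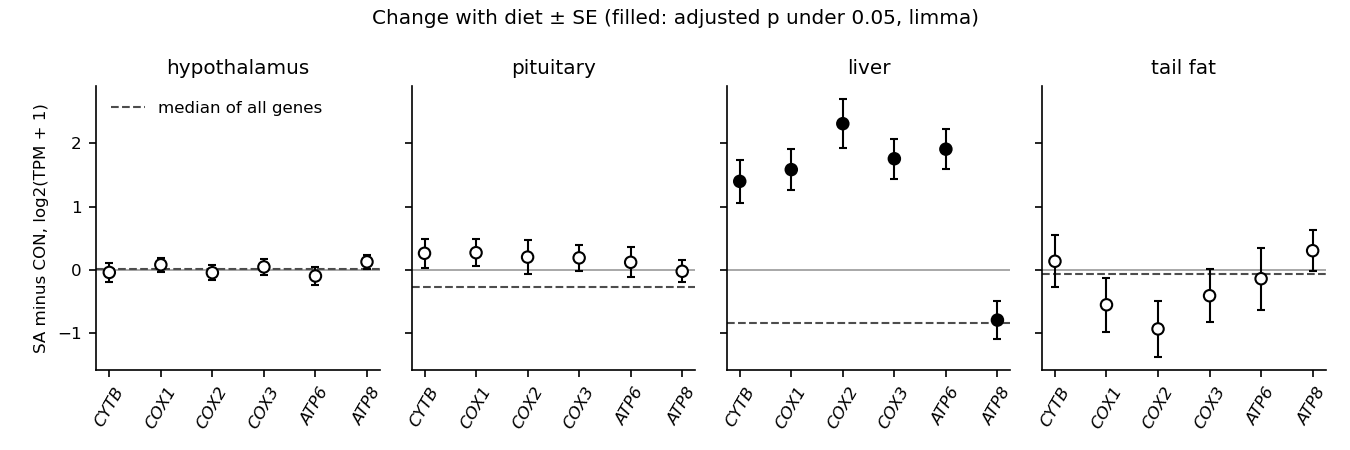
Change of each member with diet, as the difference of SA and CON in log2(TPM + 1), positive where SA is higher, with its SE (limma), by tissue; filled points have an adjusted p under 0.05 and the dashed line is the median of all genes tested. Filled points are found in liver, between 1.40 and 2.31 for 5 members and at -0.80 for ATP8.

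In the other 3 tissues no member passed the test, and the SA and CON values of every member overlapped, as they did for all but 1.96% of genes tested in hypothalamus, 1.17% in pituitary and 9.68% in tail fat. In tissue labelled hypothalamus the changes lay between -0.10 (ATP6) and 0.13 (ATP8), each smaller than or close to its SE, and the members varied little between libraries. CYTB averaged 23397 ± 1398 TPM in SA and 24343 ± 4584 TPM in CON, and ATP6 averaged 38744 ± 3463 TPM in SA and 41731 ± 6863 TPM in CON (SD, n = 4 each). COX3 averaged 52128 ± 2800 TPM in SA and 50737 ± 6412 TPM in CON. Among the CON libraries CON 1 was the highest for every member, and for CYTB, COX2, COX3 and ATP6 it was also above every SA library. COX1 averaged 52581 ± 2476 TPM in SA and 49818 ± 3779 TPM in CON, and ATP8 averaged 139400 ± 10152 TPM in SA and 127730 ± 8745 TPM in CON (SD, n = 4 each). Of all 14126 genes tested there, 0 passed in limma (0% of those tested), with 493 at an unadjusted p under 0.05, and 3 passed when the 32 libraries were fitted together.

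In tissue labelled pituitary the changes lay between -0.02 (ATP8) and 0.27 (COX1), above the median of all genes tested, -0.27. COX2 had 29256, 27867, 42538 and 70148.5 TPM in SA and 31120, 32395, 36152 and 38246 TPM in CON. COX1 had 53730, 50684, 69215 and 85223 TPM in SA and 44031, 51544, 57237 and 58337 TPM in CON, and ATP8 had 98455, 94433, 109239 and 129068 TPM in SA and 110818, 114323, 109263 and 101031 TPM in CON. SA 4 was the highest of the 8 libraries for all 6 members, and without it the changes lay between -0.11 (ATP8) and 0.13 (COX1). Of all 14472 genes tested, 0 passed in limma (0% of those tested), with 218 at an unadjusted p under 0.05, and 4 passed when the 32 libraries were fitted together.

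Relative to the mean, tail fat had the widest spread between libraries of a group for every member but COX2. For COX2 the SD was 48.2% of the mean in CON liver and 46.0% in CON tail fat. COX2 had 7896, 23506, 23118 and 21280 TPM in SA tail fat, against 29132, 17696, 56518 and 41899 TPM in CON tail fat. SA 1 was the lowest of the 8 libraries and CON 2 the lowest of its diet, and the change of -0.94 ± 0.44 did not pass (SE; limma adjusted p = 0.351). COX1 had 27953, 51378.5, 65398 and 77265 TPM in SA and 71144, 35772, 119349 and 110849 TPM in CON, a change of -0.55 ± 0.43 (SE; limma adjusted p = 0.582). The same 2 libraries, SA 1 and CON 2, were the lowest of their diets for COX3, ATP6 and CYTB. COX3 had 31257, 70158, 78975 and 81285 TPM in SA and 87603, 39166, 122917 and 103986 TPM in CON (change -0.41). ATP6 had 21557, 28366, 48057 and 70595 TPM in SA and 51747, 15089, 71125 and 55216 TPM in CON (change -0.14). CYTB had 16420, 26853, 32077 and 35899 TPM in SA and 28569, 11272, 40438 and 26798 TPM in CON (change 0.14), so the diets overlapped for each of these 3. ATP8 did not follow them: it had 71417, 51646, 61852 and 46202 TPM in SA and 37084, 43238, 39423 and 72095 TPM in CON, with SA 1 the highest SA library and CON 2 the second of the CON libraries (change 0.30, limma adjusted p = 0.715). In tail fat, 0.697% of the 11185 genes tested passed. With SA 1 and CON 2 left out, no member passed either, and the change of COX2 was -0.86 (limma adjusted p = 0.188).

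The SA minus CON difference varied between tissues for all 6 members. The test was a limma F-test of the interaction over 32 libraries, which 27.0% of 16360 genes passed. The F values, each with 3 numerator degrees of freedom, were 16.8 for COX2 (adjusted p = 7.31e-05), 11.6 for COX3 (adjusted p = 7.31e-04) and 9.86 for COX1 (adjusted p = 0.0017). They were 8.48 for ATP6 (adjusted p = 0.00335), 6.58 for ATP8 (adjusted p = 0.00996) and 5.10 for CYTB (adjusted p = 0.0257). These tests ask whether the SA minus CON difference is the same in all tissues. They cover the 5 members that were higher and the 1 that was lower in SA liver. In these tests too, the diet in liver cannot be told apart from the library difference described below with CCDC152. The call of CYTB was lost when 1 of 4 liver libraries was left out (adjusted p 0.0647 to 0.0722), that of COX3 after quantile normalization (F = 3.70, adjusted p = 0.0684) and that of ATP8 scaled to nuclear TPM (F = 0.235, adjusted p = 0.908). The labels do not say which libraries of different tissues share a sheep, and the test treats them as independent.

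The order of the tissues differed between the SA and CON libraries, mainly through liver. In liver the diet cannot be told apart from the library difference described below with CCDC152. On the SA diet liver was the highest tissue for COX1, COX2, COX3, ATP6 and CYTB, and the lowest for ATP8. On the CON diet liver was the lowest tissue for those 5 members, tail fat was the highest for COX1, COX3, ATP6 and CYTB, and tissue labelled hypothalamus was the highest for COX2 and ATP8. The span of the tissue means on the SA diet was between 1.35 times for CYTB and 3.98 times for ATP8. On the CON diet the span was between 2.13 times for COX1 and 3.36 times for COX3.

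Tissue pairs were tested within the 16 CON libraries. Of these, only tail fat CON 1, CON 3 and CON 4 had the gene CCDC152 at 1 TPM or more, a library difference described below. Pairs with tail fat thus set mostly libraries of different sides of that split against each other, and its part in them was not tested. Liver was below tail fat for 5 of 6 members (44.1% of 15929 genes passed in either direction, 20.8% lower in liver), with COX3 at 26279 ± 4136 TPM in liver and 88418 ± 35865 TPM in tail fat (SD, n = 4 each; change -1.64, limma adjusted p = 8.46e-05). ATP8 was the exception, with a change of 0.39 that did not pass (adjusted p = 0.122) and was -0.35 scaled to nuclear TPM. After quantile normalization 1 member was called higher and 4 lower in liver than in tail fat. On that scale 9083 of 15929 genes were called, 3951 higher and 5132 lower in liver. Without tail fat CON 4, COX1 did not pass (adjusted p = 0.0532) and ATP8 did, at 0.60 (adjusted p = 0.00951). Liver was also below tissue labelled hypothalamus for 5 members (68.2% of genes passed, 51.5% lower in liver) and below tissue labelled pituitary for the same 5 (73.1% passed, 58.3% lower in liver). COX1 did not pass in either pair, at -0.35 and -0.43, and the call of CYTB against pituitary (-0.70, adjusted p = 0.0447) was lost in 11 of the 16 fits that left out 1 library. The largest of these differences was that of COX2, which stood at 13997 ± 6744 TPM in liver against 41147 ± 4356 TPM in tissue labelled hypothalamus (SD, n = 4 each; change -1.67, limma adjusted p = 2.52e-04). At these backgrounds a lower level in liver than in either of these tissues was the common result among all genes.

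Tail fat differed from the tissues labelled hypothalamus and pituitary for 2 members. COX3 was higher in tail fat than in tissue labelled hypothalamus (0.69, limma adjusted p = 0.0335; 67.4% of genes passed, 14.3% higher and 53.2% lower in tail fat) and than in tissue labelled pituitary (0.92, adjusted p = 0.0061; 71.4% passed, 11.9% higher and 59.4% lower). ATP8 was lower in tail fat than in both, with changes of -1.46 (adjusted p = 4.24e-06) and -1.23 (adjusted p = 2.57e-05). The call of COX3 against hypothalamus was lost in 6 of the 16 fits that left out 1 library. With tail fat CON 2 left out, COX1 (0.90), ATP6 (0.75) and CYTB (0.72) also passed as higher in tail fat than in pituitary, and COX1 (0.98) and ATP6 (0.51) than in hypothalamus. No member differed between tissue labelled hypothalamus and tissue labelled pituitary, where 13.1% of genes passed, so the order of these 2 tissues is within the spread between libraries.

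To set the total aside, each member was expressed as a share of the summed TPM of the 13 mitochondrial protein genes, of which ND6 was listed at 0 in every library. In liver the share of ATP8 was 6.19 ± 0.95% in SA and 26.0 ± 2.5% in CON (SD, n = 4 each), a difference of -19.8 percentage points (exact two-sided permutation p = 0.0286, the smallest that 4 against 4 libraries give; adjusted p = 0.098 over 24 comparisons). COX2 took 11.3 ± 1.5% in SA and 5.72 ± 1.94% in CON liver, and COX3 took 15.5 ± 1.6% in SA and 11.1 ± 0.25% in CON liver. ATP6 took 11.4 ± 1.9% in SA and 7.29 ± 0.54% in CON liver, and COX1 took 20.7 ± 2.2% in SA and 16.7 ± 0.60% in CON liver. The diets did not overlap for these 5 shares, each with the same exact p of 0.0286 and adjusted p of 0.098. None of the 24 comparisons passed after adjustment. With 4 libraries per diet a share could pass only if many of the 24 reached the smallest p, so this outcome cannot decide about any single share. With ATP8 left out of the denominator, the COX1 share was 22.0% in SA and 22.6% in CON liver and the CYTB share 5.82% in SA and 6.77% in CON liver, so the direction of both turned round. COX2 (12.1% in SA and 7.67% in CON liver), ATP6 (12.1% in SA and 9.84% in CON liver) and COX3 (16.5% in SA and 15.0% in CON liver) kept their direction, but the diets now overlapped for each of them, with exact permutation p of 0.0857, 0.0857 and 0.143.

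In tail fat the CYTB share was 7.20 ± 0.49% in SA and 5.52 ± 0.83% in CON, and the COX1 share was 14.1 ± 2.1% in SA and 17.2 ± 1.3% in CON (SD, n = 4 each). Neither overlapped between diets (exact permutation p = 0.0286, adjusted p = 0.098). Without SA 1 and CON 2 the differences were 1.80 and -2.34 percentage points. In the tissues labelled hypothalamus and pituitary no share separated the diets, and ATP8 held 28.2% in SA and 26.5% in CON of hypothalamus and 23.2% in SA and 26.3% in CON of pituitary.

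**Figure D3:**
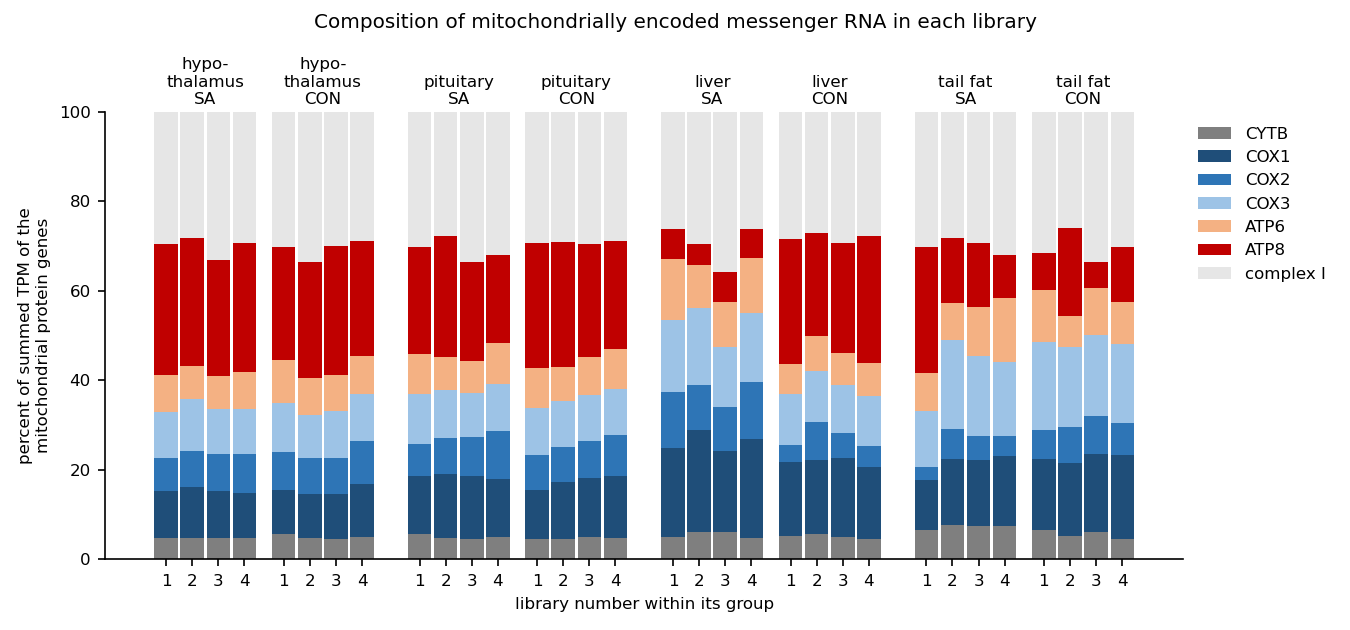
Percent of the summed TPM of the mitochondrial protein genes taken by each member and by the complex I genes, for each of the 32 libraries, with SA left of CON in every tissue. ATP8 takes 4.80% to 6.89% in the SA livers and 23.1% to 28.3% in the CON livers, and in tail fat its share is largest in SA 1 and CON 2.

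ATP8 and ATP6, which share 1 messenger, were set against each other within each library. The ratio of ATP8 to ATP6 TPM was 0.507 to 0.664 in SA liver and 2.91 to 4.18 in CON liver. In tissue labelled hypothalamus the ratio was 3.49 to 3.83 in SA and 2.65 to 3.50 in CON, and in tissue labelled pituitary it was 2.11 to 3.60 in SA and 2.73 to 3.68 in CON. In tail fat it was 3.31 in SA 1 and 2.87 in CON 2, and between 0.554 and 1.82 in the other 6 libraries. The ratio thus took low values in 10 libraries and high values in 22, and in tail fat the split ran across the diets.

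These 10 libraries were the ones with the nuclear gene CCDC152, neighbour of the selenoprotein gene SELENOP, at 1 TPM or more (57.8 to 842 TPM), while in the other 22 it did not exceed 0.12 TPM. SELENOP stood at 46.0 to 773 TPM in the 10 libraries and at 368 to 5758 TPM in the 22. The second overlapping pair of mitochondrial genes, ND4L and ND4, both subunits of complex I, also had lower ratios in the 10 libraries. The ratio of ND4L to ND4 was 0.543 to 0.970 in the 10 libraries and 0.978 to 1.43 in the 22, with almost no gap between the ranges. ATP8 is the shortest of the 13 mitochondrial protein genes, and reads from its overlap with ATP6 could be given to either gene by the authors' counting, so the level of ATP8 is uncertain. All 4 SA livers fell among the 10 libraries and all 4 CON livers among the 22, so in liver this difference between libraries and the diet cannot be told apart. In tail fat, where the split ran across the diets, the 6 members held 26.1% to 46.8% of TPM in the 6 libraries with CCDC152 at 1 TPM or more (3 per diet) and 16.7% to 17.9% in the other 2 (1 per diet). Without ATP8 the other 5 members held 20.8% to 42.7% in those 6 and 10.6% to 12.2% in those 2. In liver the 6 members held 38.2% to 49.9% in SA, all with CCDC152 at 1 TPM or more, and 14.4% to 20.3% in CON, all below it. In tail fat the 5 members other than ATP8 were thus lowest, within each diet, in the 1 library with CCDC152 below 1 TPM, while ATP8 was not. In pituitary SA 4, with CCDC152 at 0, the 6 members held 45.8%. The part of the library split in the liver difference was not tested.

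**Figure D4:**
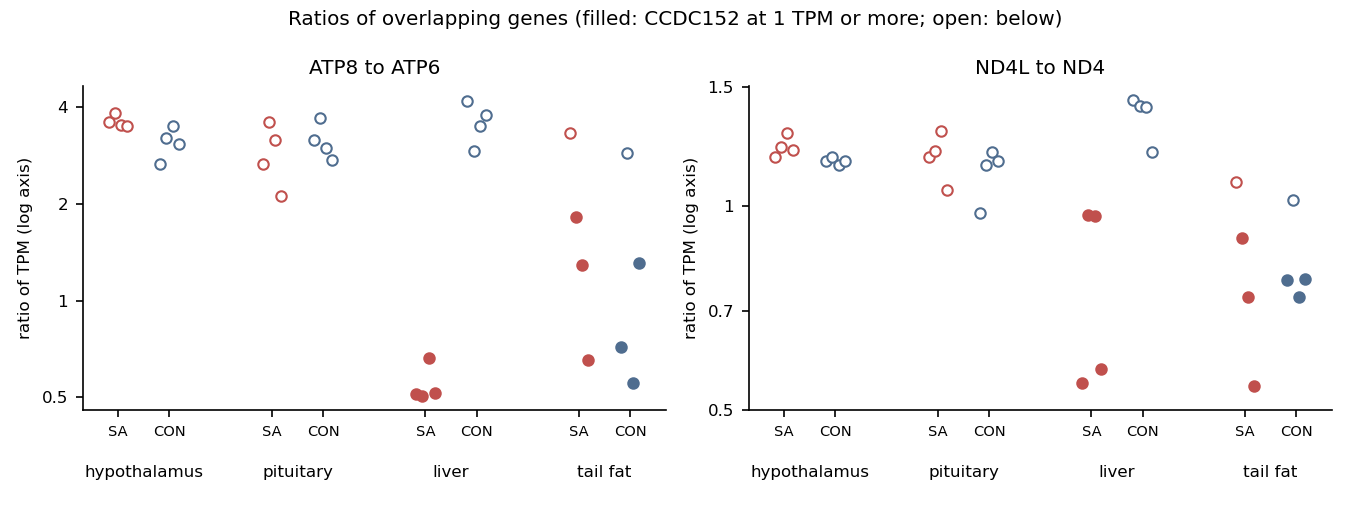
Ratio of TPM of ATP8 to ATP6 and of ND4L to ND4 (log axes) in each library, with SA left of CON; filled points are libraries with CCDC152 at 1 TPM or more. All filled points lie below all open points in both panels, at 0.507 to 1.82 against 2.11 to 4.18 for ATP8 to ATP6.

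Ratios between members on separate messengers also varied. COX2 to COX1 was 0.443 to 0.631 in SA liver and 0.241 to 0.507 in CON liver, and 0.683 to 0.867 in SA and 0.791 to 0.863 in CON of tissue labelled hypothalamus. COX3 to ATP6, whose genes are adjacent, was 1.19 to 1.82 in SA liver and 1.43 to 1.69 in CON liver. Both liver ranges overlapped between diets, unlike that of ATP8 to ATP6.

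The mitochondrial complex I genes, outside the 6 members, moved with them in liver. There 5 of the 6 tested rose and none fell, with a median of 1.66, set against 5.21% of all genes called higher. The 5 were ND2 (2.40), ND5 (1.99), ND3 (1.87), ND4 (1.45) and ND1 (1.33), while ND4L, which overlaps ND4, changed by 0.57 and did not pass (limma adjusted p = 0.290). After quantile normalization 4 of the 6 were called higher (16.3% of all genes), and scaled to nuclear TPM all 6 (14.9% of all genes). In liver the diet cannot be told apart from the library difference described above with CCDC152. As a description over the 32 libraries, which share a scale to 1 total per library, the mitochondrial gene nearest in pattern to the members' mean log2(TPM + 1) was ND4 (Pearson r = 0.91), then ND2 (0.89) and ND3 (0.84). The nearest nuclear genes were C3orf70 (0.68), CCDC191 (0.65), RCN3 (0.64), KHDRBS2 (0.64) and INTU (0.63). C3orf70 averaged 102 TPM in SA liver and 2.73 TPM in CON liver.

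Nuclear partners of the members were mostly lower in SA liver on the TPM scale, as were 59.1% of all genes tested there, with a median of -0.83 over all genes. Of 7 complex III subunits tested, 6 fell and 1 rose, with a median of -1.28. UQCRC2, a core protein of the complex, averaged 15.6 ± 0.82 TPM in SA and 78.7 ± 10.6 TPM in CON liver (SD, n = 4 each; change -2.25, limma adjusted p = 4.56e-05). UQCRFS1, the Rieske iron-sulfur protein, changed by -1.49 and UQCRC1, the other core protein, by -1.48. UQCRH was the 1 that rose, at a low level of 2.60 TPM in SA and 0.568 TPM in CON liver. Scaled to nuclear TPM, 1 of the 7 was called lower and 1 higher (median -0.31, against -0.11 for all genes).

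Of 7 nuclear complex IV subunits tested in liver, 4 fell and none rose (57.1% called lower, median -1.16), a share near that of all genes. NDUFA4 had 22.4 ± 4.9 TPM in SA and 99.5 ± 8.9 TPM in CON (change -2.13, limma adjusted p = 1.04e-04), COX5A changed by -1.70 and COX7C by -2.16. Of 10 nuclear complex V subunits tested, 8 fell and none rose (median -1.57). ATP5MC3, a gene of the membrane ring subunit c, had 28.9 ± 6.8 TPM in SA and 266 ± 31 TPM in CON, and ATP5F1B, the catalytic beta subunit, had 44.1 ± 14.1 TPM in SA and 348 ± 59 TPM in CON (SD, n = 4 each; changes -3.18 and -2.98, limma adjusted p = 3.43e-05 and 5.94e-05). ATP5F1A, the alpha subunit, changed by -1.75. Scaled to nuclear TPM, 2 complex IV subunits were called lower and 1 higher (median -0.21), and 4 complex V subunits lower and 1 higher (median -0.63), where 19.2% of all genes were called lower and 14.9% higher.

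For factors that build these complexes or handle mitochondrial DNA and RNA, the counts were near or below the 59.1% of all genes called lower, apart from the 4 regulators of biogenesis and, by a few points, RNA processing. Of 24 assembly factors tested in liver, 13 fell (54.2%) and 2, SCO2 (1.01) and PET100 (0.92), rose (median -0.78), with COX15 and COX10 of heme A synthesis at -1.54 and -1.98 and UQCC1 at -1.57. Of 12 genes of mitochondrial DNA maintenance and transcription, 5 fell (41.7%; median -0.47), among them SSBP1, the single-stranded DNA binding protein, at -2.05, MTERF4 at -1.89 and the elongation factor TEFM at -1.26. Of 14 genes of mitochondrial RNA processing and stability, 9 fell (64.3%) and 1, FASTK (0.79), rose (median -0.85). LRPPRC, which stabilises mitochondrial messengers, had 2.29 ± 0.39 TPM in SA and 11.9 ± 1.2 TPM in CON (SD, n = 4 each; change -1.97, limma adjusted p = 3.54e-05), FASTKD5 changed by -1.45 and FASTKD2 by -1.71. Of 4 regulators of biogenesis tested, 3 fell (median -0.79): ESRRA at -1.68, GABPA at -1.12 and NRF1 at -0.46. Scaled to nuclear TPM, 4 assembly factors were called lower and 4 higher, 2 genes of DNA maintenance lower and 2 higher, 6 of RNA processing lower and 1 higher, and none of the 4 regulators passed.

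**Figure D5:**
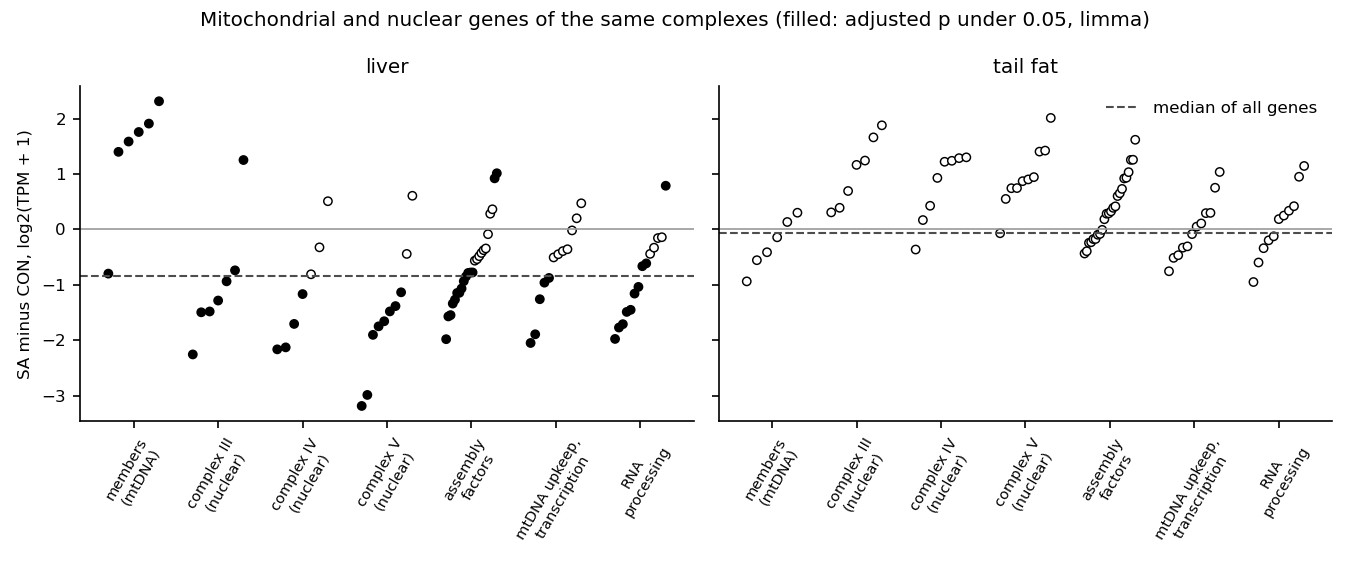
Change with diet, SA minus CON in log2(TPM + 1), of the 6 members, of the nuclear subunits of complexes III, IV and V, of their assembly factors, and of genes for mitochondrial DNA and RNA, in liver and tail fat; filled points have an adjusted p under 0.05 (limma) and the dashed line is the median of all genes. In liver 5 members are above 0 and most filled nuclear points are below it, as is the median of all genes at -0.83, and in tail fat no point is filled.

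In the other tissues no gene of these lists passed. In tail fat the medians of the nuclear subunits were 1.16 for complex III, 1.08 for complex IV and 0.89 for complex V, against -0.06 for all genes. UQCRFS1 averaged 122 ± 64 TPM in SA and 34.3 ± 23.2 TPM in CON (change 1.88, limma adjusted p = 0.113), and COX8A averaged 743 ± 160 TPM in SA and 311 ± 116 TPM in CON (SD, n = 4 each; change 1.30, limma adjusted p = 0.149). ATP5MC3 averaged 353 TPM in SA and 98.3 TPM in CON tail fat (change 2.01, limma adjusted p = 0.251). The adipocyte markers, 5 of 5 found, summed to between 10684 and 59929 TPM in SA and between 10899 and 73787 TPM in CON tail fat. In tissue labelled hypothalamus the medians of the same 3 lists lay between -0.09 and -0.04, against 0.02 for all genes. In tissue labelled pituitary they lay between -0.39 and -0.30, against -0.27 for all genes.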

How the data were processed

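RNA was extracted with TRIzol and stranded messenger RNA libraries were made, per the labels' protocols. The authors deposited 1 table of TPM, made with fastp, HISAT2 and RSEM per the submitters' processing notes; their versions, the genome build and the strand setting were not found in these sources. Because TPM keeps no read numbers, the depth is unknown and counting intervals were not computed. Columns summed to between 936939 and 987320 TPM; 8 columns of the authors' group means were not used, and 13350 rows have no gene name. Overlap of genes was read from a RefSeq table of the assembly ARS-UI_Ramb_v3.0.

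A gene entered a fit if 4 libraries or more had 1 TPM or above. Fits used log2(TPM + 1) in limma 3.58.1 under R 4.3.3 (empirical Bayes with mean trend, robust), two-sided, with Benjamini-Hochberg adjustment over all genes of a fit and a threshold of 0.05; this scale understates changes of low genes. Shares were tested by exact permutation with scipy 1.17.1. The limma code was tested on simulated data. Named genes are the 6 members, up to 3 genes of smallest p per list and tissue, and the 5 nuclear genes nearest in pattern. All mitochondrial complex I genes are named too. PPP1R1B and CGA come from the lists of tissue markers, and SELENOP, CCDC152 and GAPDH from a list of genes of library state. These were given as levels without a test. UQCRH, SCO2, PET100 and FASTK, the few that rose in their lists, were chosen after their values were seen. The members and lists were chosen with earlier results of these data known. Alternatives were the pseudocount 0.1, no filter, quantile normalization, scaling to nuclear TPM, a replicate block, a joint fit, the SA libraries for tissue pairs, and leaving out libraries. The labels do not say which libraries of different tissues come from the same sheep, and p-values measure the spread between the libraries of a group.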

Additional observations from a re-analysis of the deposited data

Results flagged for a closer look

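Of 96 groups of 4 libraries examined (6 members, 8 groups, TPM and share of mitochondrial messenger), 4 held a library far from the other 3 by Dixon's test, where chance gives about 1 in 20 groups. COX2 had 7896.3 TPM in tail fat SA 1, against 21280 to 23506 TPM in the other 3 SA libraries. COX3 had 60345.1 TPM in hypothalamus CON 1, against 47249 to 47956 TPM in the other 3 CON libraries. COX3 had 114384 TPM in liver SA 2, against 79596 to 81609 TPM in the other 3 SA libraries. COX1 took 11.7203% of mitochondrial messenger in hypothalamus CON 4, where the lowest CON library had 9.75%.

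The SA minus CON difference varied between tissues, by the limma F-test of the interaction, for COX1 (F = 9.864), COX2 (F = 16.84), ATP6 (F = 8.484), COX3 (F = 11.56), CYTB (F = 5.100) and ATP8 (F = 6.582). Of all 16360 genes tested, 27.0% passed. The calls of CYTB, COX3 and ATP8 were each lost in some of the alternative runs given above. In liver the diet cannot be told apart from the library difference described with CCDC152.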

How the results depend on the processing

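Among the 150 diet values of the members under alternatives other than leaving out 1 library, 137 kept their direction and side of the threshold, 11 reversed and 2 lost the call. Of the 11 reversals, that of ATP8 in liver was the one of a called change. After quantile normalization COX2 was 0.0276 in hypothalamus, COX2, ATP6 and COX3 were -0.0157, -0.14 and -0.0615 in pituitary, COX3 was 0.0822 in tail fat, and hypothalamus minus pituitary was -0.15 for COX2 and -0.0331 for ATP6. Scaled to nuclear TPM CYTB was 0.00195 in hypothalamus, ATP8 was 0.22 in pituitary, 0.18 in liver and -0.0802 in tail fat, and CYTB was -0.25 in tail fat. On that scale liver minus tail fat was -0.35 for ATP8, tail fat minus pituitary 0.27 for COX2, and hypothalamus minus pituitary 0.12 for COX1. Without tail fat CON 2 and SA 1, CYTB was -5.79e-04 in tail fat.

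In the 16 SA libraries, liver minus tail fat was 1.18 for COX1, 1.88 for COX2, 0.75 for ATP6 and 0.52 for COX3. It was 0.21 for CYTB and -0.71 for ATP8, with 3 members called, 2 higher and 1 lower in liver. Of all 15696 genes tested in that comparison, 7457 were called, 2277 higher and 5180 lower in liver. Liver minus hypothalamus was 1.16 for COX1, 0.69 for COX2, 0.73 for ATP6, 0.76 for COX3 and 0.40 for CYTB. Liver minus pituitary was 0.89 for COX1, 0.69 for COX2, 0.75 for ATP6, 0.84 for COX3 and 0.44 for CYTB. All SA livers and tail fat SA 2, SA 3 and SA 4 had CCDC152 at 1 TPM or more, unlike the other SA libraries. Tail fat minus hypothalamus was -0.0175 for COX1 and -0.0255 for ATP6, and tail fat minus pituitary -0.29 for COX1. Genes called between hypothalamus and pituitary numbered 1317 in SA libraries, against 2087 in CON libraries. Tail fat minus hypothalamus had 1 member called with no filter, after quantile normalization and when scaled to nuclear TPM. Genes called there numbered 11764 of 24812, 11156 of 15929 and 11621 of 15929, in that order.

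Shares with ATP8 out of the denominator differed by -0.95 points for CYTB and -0.52 for COX1 in liver, and by -0.11 for COX2 and -0.32 for COX3 in pituitary; over the 6 members alone COX3 differed by -0.0123 in hypothalamus.

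Genes called in liver numbered 4326 (43.6% higher) after quantile normalization and 3951 (43.6% higher) when scaled to nuclear TPM, against 7445 (8.1% higher). In tail fat they numbered 0 with no filter (limma; 2588 at an unadjusted p under 0.05), 415 after quantile normalization, 1160 (11.1% higher) when scaled to nuclear TPM, 1938 in the joint fit and 346 (65.9% higher) without CON 2 and SA 1, against 78 (39.7% higher). The joint fit called 3 genes in hypothalamus and 4 in pituitary. The cause of these shifts was not tested.

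Whether same-numbered libraries deviate together was checked by correlation: 4 of 16 pairs between diets exceeded 0.1 (range -0.34 to 0.29) and 14 of 48 pairs between tissues did (range -0.32 to 0.37). In 1 combination, hypothalamus with pituitary on the SA diet, all 4 pairs exceeded 0.1 (0.13 to 0.37), so pairing cannot be set aside there, while on the CON diet the same tissues gave -0.32 to 0.06. With the block all 6 members still passed the interaction test (highest adjusted p = 0.0407, CYTB), and CYTB in liver minus pituitary did not pass (adjusted p = 0.0601). With the replicate block, ATP8 in liver was not called (adjusted p = 0.0961), 5 members were called there, and 413 genes in tail fat.

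Leaving out 1 library gave 5 to 6 members called in liver and for the interaction, 3 to 6 for liver minus pituitary, 1 to 4 for tail fat minus hypothalamus, 2 to 5 for tail fat minus pituitary, and 0 for the diet in the other tissues. Changes that turned round in some of these fits, none of them called in the full fit, ranged in hypothalamus from -0.11 to 0.00581 (COX2), -0.15 to 0.0108 (ATP6) and -0.12 to 0.0806 (CYTB). In pituitary they ranged from -0.0754 to 0.37 (COX2), -0.11 to 0.30 (ATP6) and -0.11 to 0.0367 (ATP8), and in tail fat from -0.63 to 0.13 (ATP6) and -0.23 to 0.38 (CYTB). For tail fat minus hypothalamus they ranged from -0.56 to 0.00152 (COX2), -0.24 to 0.51 (ATP6) and -0.23 to 0.39 (CYTB), and for tail fat minus pituitary from -0.30 to 0.26 (COX2). Differences in share ranged in hypothalamus from -0.0128 to 0.772 (COX1) and -0.274 to 0.294 (COX3) percentage points. In pituitary they ranged from -0.398 to 0.781 (COX2), -0.0238 to 0.391 (COX3) and -0.584 to 0.152 (ATP6), and in tail fat from -0.393 to 1.71 (ATP6). Genes called ranged from 0 to 1 in hypothalamus and pituitary, 6095 to 7488 in liver, and 3 (without CON 1) to 261 (without CON 2) in tail fat, where they numbered 8 without CON 3, 4 without CON 4, 40 without SA 1, 44 without SA 2 and 17 without SA 3 or SA 4. They ranged from 3600 to 6190 for the interaction, 1534 to 3188 for hypothalamus minus pituitary, 9990 to 11907 for liver minus hypothalamus, 10815 to 12527 for liver minus pituitary, 5874 to 8748 for liver minus tail fat, 9987 to 11794 for tail fat minus hypothalamus and 10617 to 12285 for tail fat minus pituitary. Depth is unknown from TPM, and 4 libraries per group limit the precision.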
